A study of Mus musculus with 2 samples.

Results

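The clustered replication-dependent histone genes are the genes that encode the histones H1, H2A, H2B, H3 and H4 of newly built chromatin. They were chosen by symbol alone, as every listed gene named Hist1h, Hist2h, Hist3h or Hist4h, which gave 66 of the 22350 gene symbols in the data. The 66 comprised 6 H1, 18 H2A, 18 H2B, 11 H3 and 13 H4 genes, and 3 of them (Hist1h2aj, Hist1h2al and Hist3h2bb-ps) are annotated as pseudogenes. The libraries came from epithelial cells of the colon of C57BL/6 mice, 1 from wild type and 1 from Pkm2-/- animals. The knockout targets Pkm2, a pyruvate kinase isoform, and both genotypes had been given DSS (dextran sulfate sodium, which damages the lining of the colon) at 2.5% for 3 days. The sources used here give neither the number of animals behind a library nor the cells in which the allele is lost. Levels are FPKM, fragments scaled to transcript length and to the mapped total, so that genes of different length can be set side by side.

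Replication-dependent histone genes are switched on in S phase, when DNA is copied and new nucleosomes are needed. Their messenger RNAs as a rule carry no introns. In cycling cells they usually end without a poly(A) tail, just after a short stem-loop that is bound by the protein SLBP. Some of these genes can also yield polyadenylated transcripts that run past the stem-loop, a form known from differentiated cells. A library made by catching poly(A) tails therefore sees the usual form poorly.

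The stem-loop is shown first because the usual 3′ end of these transcripts is formed beside it. The pattern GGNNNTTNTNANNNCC was searched on the sense strand of every GENCODE M21 transcript (GRCm38), where N is any base. A match was kept only if the arms of its stem could pair in full. Such matches were found in 45 of the 66 genes. They were found in 107 of all 141767 transcripts (0.0755%), and on the reverse complement of 0.0536%. Of the 79 genes with a match 46 are clustered histone genes, 1 of them not listed in these libraries, and the others include genes that encode no histone, such as Med13 and Xpo5. The 45 stem-loops fell into 8 kinds, of which 1 was shared by 25 genes of the H1, H2A, H2B and H3 classes, while 7 H4 genes shared another. The most abundant gene with a stem-loop is given here for each class, with the 16 bases of the stem-loop in capitals and 5 flanking bases on each side. They lie at chr13:23739507-23739532 (plus strand), chr3:96246027-96246052 (plus), chr13:23571838-23571863 (plus), chr3:96238480-96238505 (minus) and chr13:22040961-22040986 (minus), in that order.
Hist1h1c: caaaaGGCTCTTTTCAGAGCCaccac
Hist2h2aa1: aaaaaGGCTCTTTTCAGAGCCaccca
Hist1h2bg: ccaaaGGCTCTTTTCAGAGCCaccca
Hist2h3c2: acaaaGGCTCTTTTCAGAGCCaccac
Hist1h4i: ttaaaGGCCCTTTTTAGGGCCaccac
The first 4 hold the same 16 bases, and the H4 gene differs from them in both arms of the stem and in the loop.

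The 66 genes together stood at 215 FPKM in wild type and 128 FPKM in knockout, a knockout to wild type ratio of 0.597 (95% counting interval 0.566 to 0.630). Intervals here cover counting error only. With 1 library per genotype there is no replicate check, no test was possible, and every statement describes these 2 libraries. In the wild type library 64 of the genes were listed, in the knockout library 63, and in both 61. Pkm itself stood at 281 FPKM in wild type and 86.2 FPKM in knockout, a value that covers both of its isoforms. The libraries corresponded to about 18699700 fragments for wild type and 20997400 for knockout, and 42 of the 66 genes rested on fewer than 10 fragments in both libraries.

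Much of the sum came from a pair of genes. Hist1h2bc, an H2B gene, and Hist1h1c, which encodes the linker histone H1.2, made up 61.3% of it in wild type and 54.3% in knockout. Without them the ratio of the sums was 0.705. A group of 8 genes had a mean of at least 3 FPKM, a limit chosen after the values were seen, and all 8 were lower in the knockout library, 7 of them with a counting interval that excluded equality. The matching shares of all genes were not computed, so these counts have no background. Counting intervals narrow with depth, so well-covered genes fall outside equality more easily. The other 58 genes summed to 38.7 FPKM in wild type and 32.7 FPKM in knockout, a ratio of 0.846 (95% counting interval 0.729 to 0.981).

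**Figure D1:**
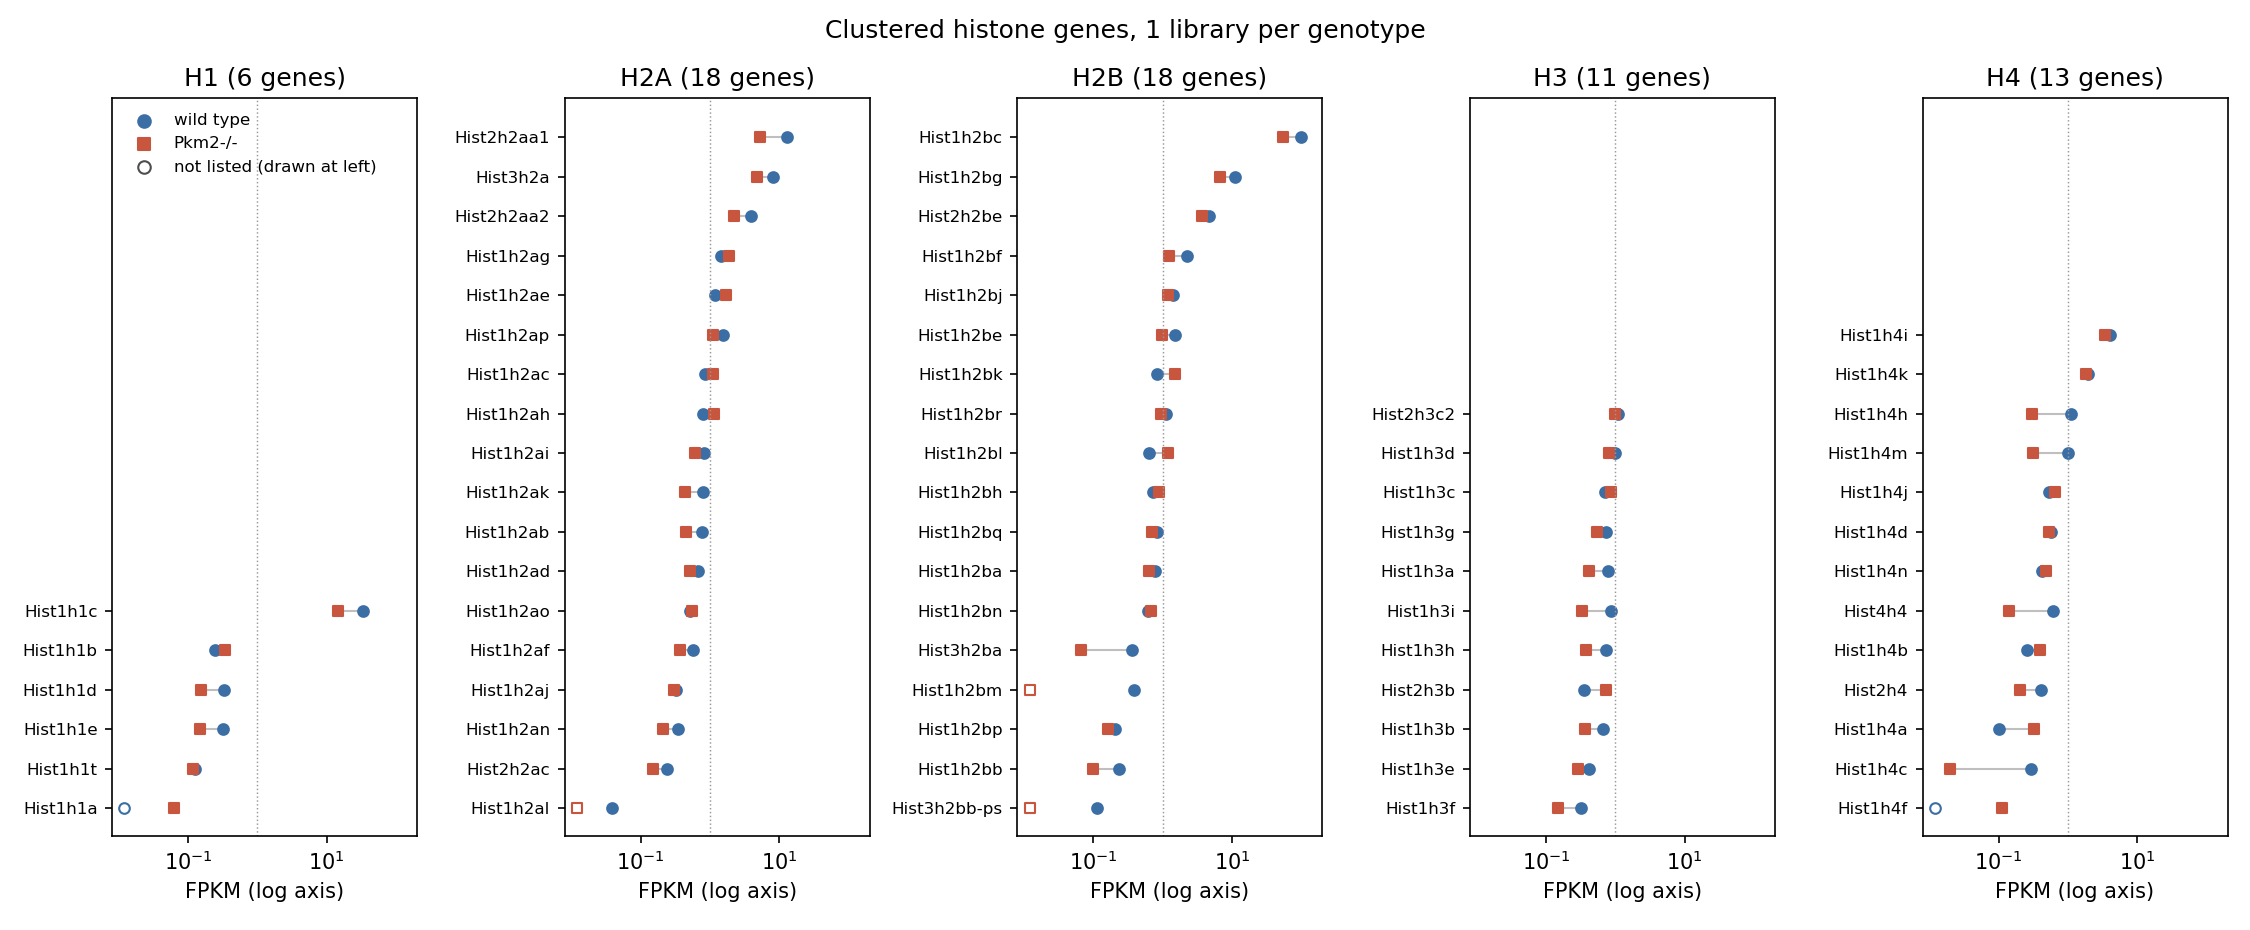
FPKM (log axis) of each of the 66 genes in the wild type (circles) and Pkm2-/- (squares) library, by histone class and ordered by mean, with genes that a library did not list drawn as open marks at the left. Most genes sit under the dotted line at 1 FPKM, and Hist1h2bc and Hist1h1c stand far above the rest of their classes.

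The linker histones, which bind the DNA that enters and leaves the nucleosome, were almost entirely Hist1h1c. This gene stood at 33.1 FPKM in wild type and 14.6 FPKM in knockout, 2.26-fold lower (95% interval 2.03 to 2.53). The other 5 H1 genes were all under 0.4 FPKM in both libraries. Hist1h1b stood at 0.243 FPKM (wild type) and 0.336 FPKM (knockout), and pairs of values keep this order from here on. Hist1h1d stood at 0.332 and 0.154 FPKM, and Hist1h1e at 0.316 and 0.146 FPKM. Each of these 3 genes rested on fewer than 6 fragments per library. Hist1h1t, the testis linker histone, stood at 0.128 and 0.117 FPKM, and Hist1h1a was listed in the knockout library alone, at 0.0616 FPKM. The class summed to 34.1 and 15.4 FPKM, a ratio of 0.453 (0.406 to 0.505), and to a ratio of 0.8003 (0.374 to 1.71) without Hist1h1c.

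The H2A genes encode one partner of the H2A-H2B dimer. Hist2h2aa1 was the highest, at 12.8 FPKM in wild type and 5.20 FPKM in knockout, 2.45-fold lower (1.81 to 3.36). Its inverted copy Hist2h2aa2 stood at 3.94 and 2.197 FPKM (1.79-fold lower, 1.07 to 3.17). The 2 genes cannot be separated well, because all 31-base words of the Hist2h2aa2 transcript occur in Hist2h2aa1. Hist3h2a stood at 8.06 and 4.75 FPKM (1.70-fold lower, 1.43 to 2.03), and its exons overlap those of Trim17 on the same strand. Other H2A genes went the other way or lay close: Hist1h2ag stood at 1.42 and 1.89 FPKM, and Hist1h2ae at 1.19 and 1.68 FPKM, both higher in the knockout library within counting error. Hist1h2ap stood at 1.52 and 1.09 FPKM. The class summed to 35.6 and 22.6 FPKM (ratio 0.636, 0.546 to 0.741). Its 15 genes with a mean under 3 FPKM summed to 10.8 and 10.5 FPKM, a ratio of 0.970 (0.729 to 1.29).

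The H2B genes encode the other partner and gave 58.8% of the wild type sum of all histone genes. Hist1h2bc stood at 98.6 FPKM in wild type and 55.0 FPKM in knockout, 1.79-fold lower (1.67 to 1.92). Hist1h2bg stood at 10.9 and 6.62 FPKM (1.65-fold lower, 1.21 to 2.31). Hist2h2be stood at 4.70 and 3.65 FPKM (1.29-fold lower, 1.06 to 1.56). These 3 genes were lower in the knockout library by more than counting error. So was Hist1h2be, at 1.49 and 0.961 FPKM (1.56-fold lower, 1.06 to 2.26). Hist1h2bf stood at 2.25 and 1.23 FPKM, and Hist1h2bj at 1.39 and 1.21 FPKM, with intervals that held equality. Hist1h2bk had the highest log2 ratio of the class, at 0.815 and 1.52 FPKM, on 7 and 15 fragments. Hist1h2bm, at 0.383 FPKM, was listed in the wild type library alone. The class summed to 126 and 75.6 FPKM (ratio 0.599, 0.561 to 0.639), and its 15 genes under a mean of 3 FPKM had a ratio of 0.860 (0.669 to 1.11).

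The H3 and H4 genes encode the tetramer at the centre of the nucleosome, and they were low in both libraries. The 11 H3 genes summed to 7.64 FPKM in wild type and 5.84 FPKM in knockout (ratio 0.765, 0.553 to 1.06). Hist2h3c2 was the highest, at 1.08 and 0.979 FPKM, followed by Hist1h3d at 0.993 and 0.798 FPKM and Hist1h3c at 0.705 and 0.874 FPKM. Hist1h3i stood at 0.859 and 0.325 FPKM, Hist1h3a at 0.779 and 0.416 FPKM, and Hist1h3g at 0.735 and 0.537 FPKM. No interval of an H3 gene excluded equality.

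The 13 H4 genes summed to 11.3 FPKM in wild type and 8.76 FPKM in knockout (ratio 0.775, 0.587 to 1.02). Hist1h4i stood at 4.06 and 3.47 FPKM (1.17-fold lower, 0.784 to 1.73), the only gene of the 8 most abundant whose interval held equality. Hist1h4k stood at 1.93 and 1.81 FPKM. Hist1h4h (1.10 and 0.302 FPKM) and Hist1h4m (1.01 and 0.318 FPKM) were lower on fewer than 10 wild type fragments each, with intervals that held equality. Hist1h4j stood at 0.534 and 0.643 FPKM and Hist1h4d at 0.571 and 0.535 FPKM, while Hist1h4f was listed in the knockout library alone, at 0.113 FPKM. Hist4h4, named after its values were seen, stood at 0.608 and 0.143 FPKM and was 4.26-fold lower (1.93 to 9.78). It is the only gene of the Hist4 locus, on chromosome 6, and its annotated transcript runs far past the stem-loop.

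**Figure D2:**
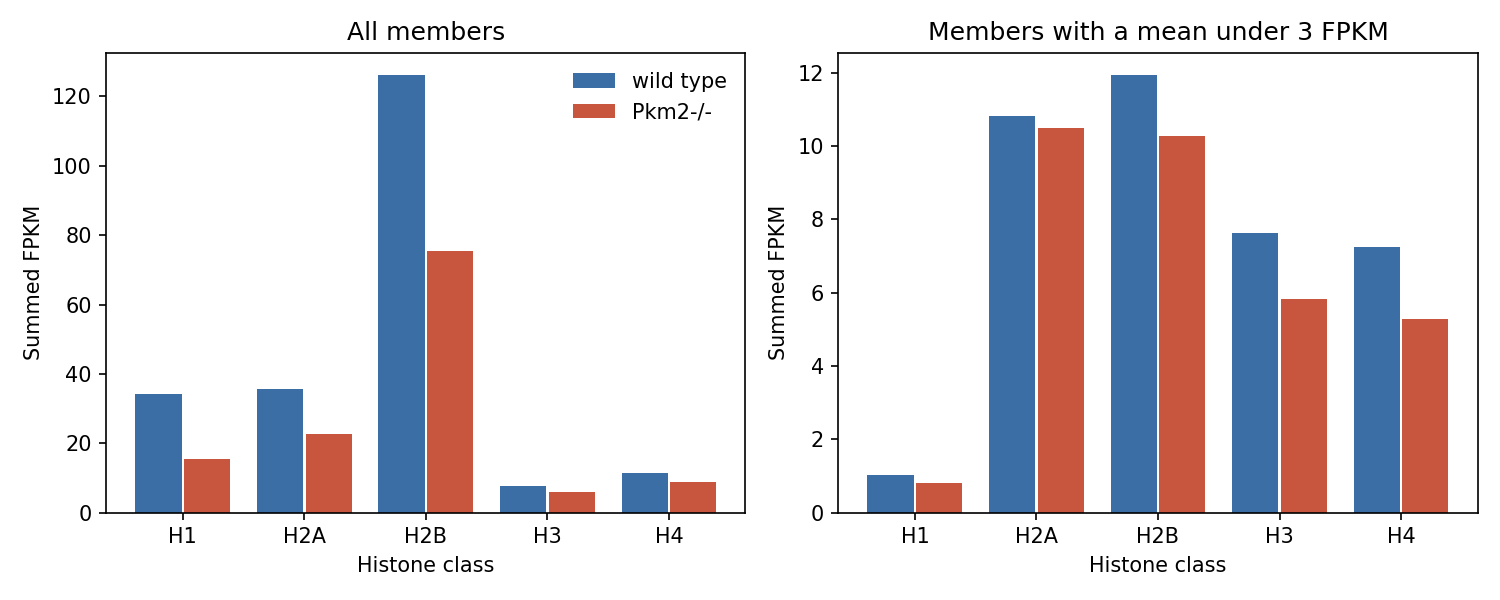
Summed FPKM of each histone class in the wild type and Pkm2-/- library, for all members (left) and for members with a mean under 3 FPKM (right), with 1 library per bar and no error bars. The H2B sum is the highest in both libraries on the left, and on the right the ratios of H1, H2A and H2B are nearer to 1, while that of H3 is the same and that of H4 is 0.730.

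Counts of the genes were read against all genes tested. Of the 18 histone genes that averaged at least 1 FPKM, 2 (Hist1h1c and Hist2h2aa1) were at least 2-fold lower in the knockout library on the log2(FPKM + 1) scale, against 1.9% of all genes tested, and 0 were at least 2-fold higher, against 1.42%. At least 1.5-fold lower were 6 of the 18 (33.3%), against 5.29% of all genes, and 0 were 1.5-fold higher, against 4.46%. A log2 ratio below 0 was found in 15 of the 18 (83.3%), against 41.2% of all genes. With equal library medians the count was again 15, and the share of all genes was 51.9%. Their median log2 ratio was -0.28, and that of all 12429 genes tested was 0.06.

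The low histone genes are described on the plain ratio. Of the 43 genes with a mean of 0.1 to 1 FPKM that both libraries listed, 30 (69.8%) had a plain ratio below 1, against 56.7% of all genes in that range. A ratio at or below 0.5 was found in 11 of the 43 (25.6%), against 20.3%, which is near the background. At or above a ratio of 2 were 2 of the 43 (4.65%), against 12.9%. Their median ratio was 0.749, and that of all genes in that range was 0.914. The 18 histone genes above this range had a median plain ratio of 0.748.

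By symbol the genes fall into 4 groups. The 55 Hist1 genes lie on chromosome 13, and the pseudogene Hist1h2al (51202688 to 51203065) is far from the others. They summed to 182 FPKM in wild type and 110.2 FPKM in knockout (ratio 0.605, 0.570 to 0.641). The Hist2 locus on chromosome 3, with 7 genes, stood at 23.5 and 13.1 FPKM (ratio 0.559, 0.469 to 0.666). The Hist3 locus on chromosome 11, with 3 genes, stood at 8.53 and 4.81 FPKM (ratio 0.564, 0.473 to 0.673). Within Hist1, genes less than 100000 bases apart were joined into stretches. The stretch from 23531050 to 23764358, with 29 genes that include Hist1h2bc and Hist1h1c, stood at 159 and 89.1 FPKM, a ratio of 0.560. The stretch from 21715763 to 21837530, with 19 genes, stood at 13.8 and 11.2 FPKM, a ratio of 0.808 (0.623 to 1.05). A stretch of 5 genes from 22035164 to 22043676, which includes Hist1h4i and Hist1h2ag, stood at 8.47 and 9.23 FPKM, a ratio of 1.09 (0.820 to 1.45).

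Many H2A and H2B genes start back to back and share 1 promoter region, and 13 such pairs lay with less than 500 bases between their starts. In 9 of them, all on chromosome 13, the wild type H2B level was 0.585 to 3.38 times that of its H2A neighbour. The pair of Hist1h2ac and Hist1h2bc was far from even. Hist1h2ac stood at 0.842 FPKM in wild type and 1.09 FPKM in knockout, and Hist1h2bc was 117 and 50.4 times as high. Beside Hist1h2bg, the H2A gene Hist1h2ae was 9.19 and 3.93 times lower than its partner. Hist2h2ac stood at 0.237 and 0.148 FPKM beside Hist2h2be, which was 19.8 and 24.6 times as high. In the pairs of Hist1h2bc and of Hist1h2bg, the H2B gene was lower in the knockout library and the H2A neighbour was not. The H2A neighbours rested on 7 to 16 fragments per library, and their intervals held equality. The ratio interval of Hist1h2ac (0.495 to 4.26) also held the ratio of Hist1h2bc, 0.558, so the 2 genes were not shown to differ in ratio. That of Hist1h2ae (0.608 to 3.51) began just above the ratio of Hist1h2bg, 0.604.

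**Figure D3:**
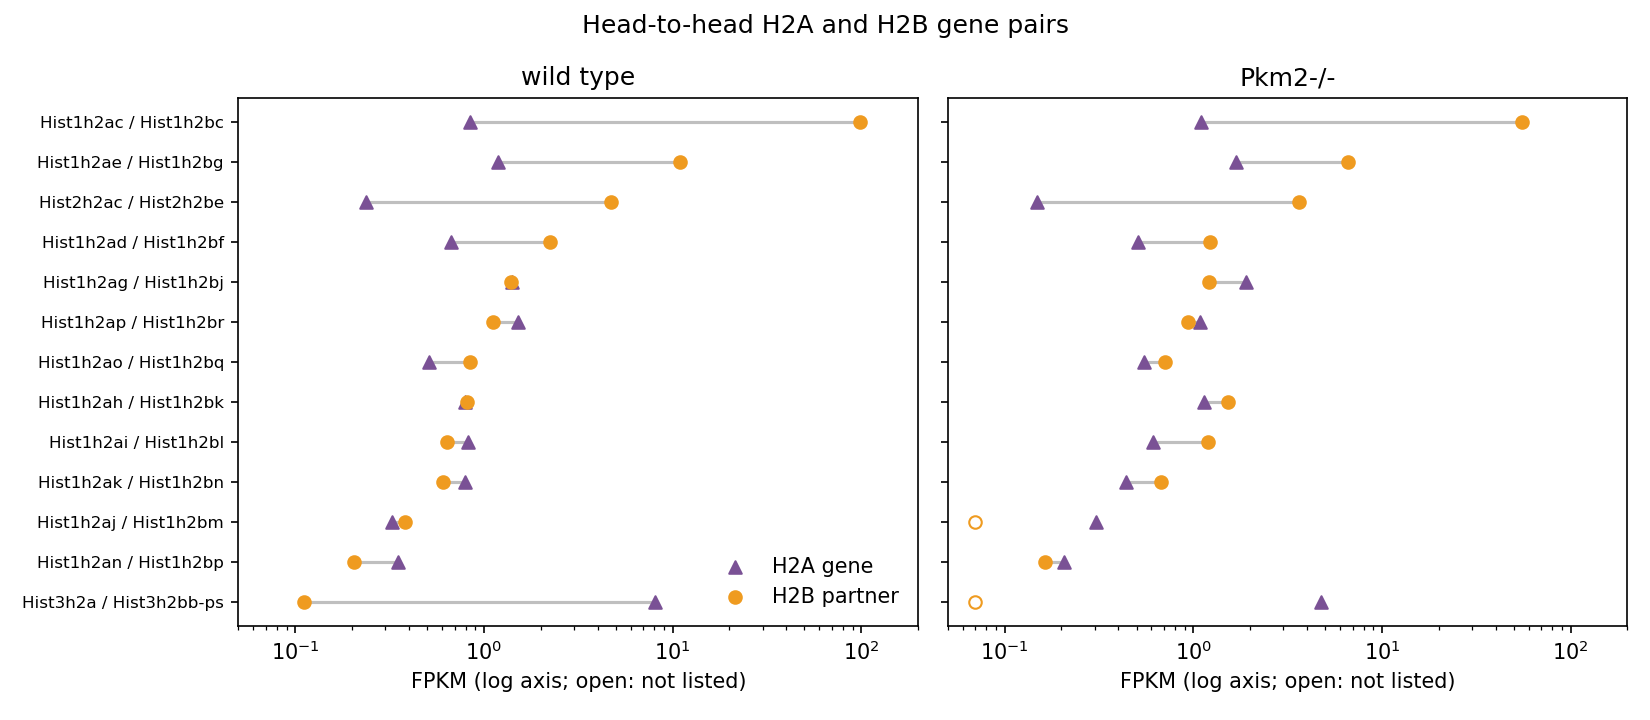
FPKM (log axis) of the H2A gene (triangles) and its H2B partner (circles) in 13 head-to-head pairs, in the wild type (left) and Pkm2-/- (right) library, with unlisted genes as open circles. The pairs of Hist1h2bc, Hist1h2bg and Hist2h2be are spread widest among those with a higher H2B gene, and Hist3h2a stands above its pseudogene partner.

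The region between the starts of Hist1h2ac and Hist1h2bc is shown because this pair was the least even in wild type. It is taken from the RefSeq promoter table (GRCm38.p6), chr13:23683960-23684198, 239 bases on the minus strand, so that it reads toward Hist1h2ac. Capitals mark matches, on either strand, to the TATA box motif TATAAA, to the box bound by the factor NF-Y, spelled CCAAT, and to the octamer motif of Oct-1, ATTTGCAT.
Hist1h2ac to Hist1h2bc: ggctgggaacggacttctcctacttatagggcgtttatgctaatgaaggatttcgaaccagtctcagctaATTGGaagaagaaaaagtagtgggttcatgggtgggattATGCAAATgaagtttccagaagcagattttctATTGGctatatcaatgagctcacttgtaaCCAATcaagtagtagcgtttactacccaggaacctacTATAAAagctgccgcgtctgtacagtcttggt
The stretch held 3 CCAAT matches, 1 octamer and 1 TATAAA, the last 32 bases before the Hist1h2ac start.

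The same motifs were counted in the RefSeq promoter windows, from 250 bases before to 50 after each start, on both strands. Windows were found for 58 of the histone genes, 59 different windows in all. None was matched to Hist1h2bc, the most abundant of the histone genes, or to Hist2h2be. CCAAT stood in 50 of the 59 (84.7%), against 37.4% of all 32851 windows, and in every H1, H2A, H2B and H3 window but only 3 of 12 H4 windows. TATAAA stood in 55.9%, against 13.6% of all windows. The octamer stood in 12 (20.3%), against 1.74%, namely in 6 of 16 H2A and 6 of 16 H2B windows. Windows of head-to-head pairs overlap, and the 12 windows held 10 different octamer positions. A match is a match of letters and does not show binding.

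The annotated ends of the transcripts differ between members. In 22 genes the GENCODE model runs at least 100 bases past the stem-loop, in 23 it ends nearer, and in 21 the model holds no stem-loop. The 21 are mixed, from short models such as Hist1h4k at 312 bases to long ones such as Hist2h2be at 2620 bases. Only the models were searched, so a stem-loop beyond the end of a short model would be missed. Hist1h1c runs 840 bases past it, Hist3h2a 1643 bases, Hist1h4i 330 bases and Hist1h2bg 155 bases, while the models of Hist1h2bc and Hist2h2be hold none. The Hist1h2bc model spans 23684199 to 23692908 on chromosome 13, far more than the 1156 bases of its longest transcript. Genes that run past summed to 66.9 FPKM in wild type and 38.6 FPKM in knockout (ratio 0.577, 0.526 to 0.634). Genes that end nearer summed to 32.7 and 20.1 FPKM (ratio 0.613, 0.515 to 0.729), and genes with no stem-loop in the model to 115 and 69.6 FPKM (ratio 0.604, 0.564 to 0.646). Single genes weigh heavily in these sums: in wild type Hist1h1c gave 33.1 of the 66.9 FPKM, and Hist1h2bc 98.6 of the 115 FPKM. With these ends the 3 ratios lay within each other's counting intervals, and the median wild type levels were 0.589, 0.735 and 0.723 FPKM in the same order. With the ends of the files' own loci in place of the models they did not: 16 genes that run past then stood at 67.7 and 34.5 FPKM (ratio 0.510, 0.466 to 0.559), and 29 that end nearer at 31.9 and 24.1 FPKM (ratio 0.756, 0.636 to 0.898). Hist2h2aa1 and Hist2h2aa2, whose loci in the files are longer than their models, are among the genes that run past in this second grouping. Hist1h1c gave 33.1 of its 67.7 FPKM in wild type. A locus in the files need not end where a transcript ends: that of Hist3h2a reaches 22863 bases past the stem-loop, against 1643 in its model. The second grouping therefore does not compare transcript ends. The models are annotation, and gene-level values do not show which end was used.

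Copies with near-identical sequence make the single values less certain. In 21 genes at least 80% of the 31-base words occur in another of the 66 genes, and in 13 genes fewer than 20% do. The 13 more distinct genes summed to 51.2 FPKM in wild type and 27.5 FPKM in knockout, a ratio of 0.537 (0.492 to 0.586). Hist1h1c alone gave 33.1 FPKM of that wild type sum. The 21 most alike had a ratio of 0.639 (0.534 to 0.765). Exons of 22 genes overlap those of another gene, for 20 of them on the other strand. Hist1h1e, Hist1h2ac, Hist1h2be, Hist2h2aa1 and Hist3h2a have an overlap on the same strand, some of them on both strands. The sources used here do not say how reads were assigned to strands.

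Structural RNAs made by other polymerases or ended in other ways also lack a poly(A) tail and were set beside the histone genes. Rn7sk, the 7SK RNA that restrains transcription elongation, stood at 22.3 FPKM in wild type and 1.06 FPKM in knockout, 20.9-fold lower (10.5 to 56.1). Rmrp, the RNA of the RNase MRP particle, stood at 11.1 and 0.542 FPKM, 20.4-fold lower (6.81 to 105). Rpph1, the RNA of RNase P, stood at 7.68 and 0.496 FPKM. Rn7s1 and Rn7s2, copies of the signal recognition particle RNA, both stood at 35.7 and 2.62 FPKM, identical values that count as 1 measurement. Terc, the telomerase RNA, stood at 0.105 and 0.386 FPKM, with an interval that held equality. The histone genes were lower by much less: their sum was 9.65 times the Rn7sk level in the wild type and 120.5 times in the knockout library. Against Rmrp the multiples were 19.4 and 237. With Rn7s1 and Rn7s2 as 1, 4 of 5 RNAs of this kind were lower in knockout; whether the libraries hold unequal shares of RNA without a poly(A) tail, and its part in the histone values, was not tested.

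Replacement histones, made through the cell cycle from transcripts with poly(A) tails, were split in direction. Of 9 such genes that averaged at least 1 FPKM, 5 had a log2 ratio below 0 and 4 above, with a median of -0.02; with equal sums outside the mitochondrial chromosome 2 were below and 7 above, with a median of 0.03. H3f3b (277 and 274 FPKM) and H3f3a (217 and 213 FPKM), the genes of histone H3.3, were close. H2afx, whose histone marks DNA breaks and whose transcripts also hold a stem-loop in GENCODE M21, stood at 32.0 and 58.2 FPKM, 1.82 times as high in the knockout library (1.67 to 1.98). H2afj, an H2A variant, stood at 57.1 and 38.7 FPKM, 1.48-fold lower (1.38 to 1.58).

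Most genes that make or handle histone transcripts, or that handle histone proteins, had log2 ratios above 0, as 58.8% of all genes had. For histone 3′ end formation and decay these were 15 of 15 measured genes (13 with equal library medians), with a median of 0.18. Among them were Slbp, which encodes the stem-loop binding protein (33.7 and 38.8 FPKM), Srrt (57.5 and 60.5 FPKM), Ncbp1 of the cap-binding complex (18.8 and 27.0 FPKM), and Lsm10 of the U7 particle (7.12 and 7.21 FPKM). Of 7 histone transcription genes 6 were above 0 (5 with equal library medians; median 0.24), led by Ccne1, cyclin E1, at 4.89 and 7.67 FPKM, while Hinfp, an activator of H4 genes, stood at 6.82 and 6.06 FPKM. Cdk2 stood at 13.7 and 15.1 FPKM and Ccne2 at 5.49 and 7.53 FPKM. Casp8ap2 was counted both here and in the list of 3′ end formation and decay. Of 15 histone chaperones 13 were above 0 (12 with equal library medians; median 0.28), with Rbbp7 at 67.8 and 82.7 FPKM, Ssrp1 at 43.0 and 55.6 FPKM and Asf1b at 7.10 and 11.5 FPKM, whereas Daxx, which deposits H3.3, stood at 26.6 and 19.2 FPKM.

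The DNA replication list had 26 of 27 genes above 0 (24 with equal library medians), with a median of 0.33. Fen1, a flap nuclease of lagging strand synthesis, stood at 12.7 and 22.2 FPKM, Mcm6 of the replicative helicase at 36.3 and 47.8 FPKM, and Pcna, the polymerase clamp, at 88.5 and 94.2 FPKM, while Gins2 was even at 17.797 and 17.5 FPKM. All 15 mitosis genes were above 0 under each of the 4 scalings, with a median of 0.61. Ccna2, cyclin A2, stood at 24.7 and 49.3 FPKM, Top2a, which untangles DNA, at 40.1 and 76.0 FPKM, and Plk1, a mitotic kinase, at 19.2 and 23.6 FPKM. The clustered histone median of -0.28 was below 0 under each scaling too, but its single genes are less well determined. The medians of the genes' lower and upper counting bounds were -0.70 and 0.21 for the clustered histones, a span that holds 0. They were 0.22 and 0.45 for replication and 0.49 and 0.74 for mitosis. Such spans are those of a typical gene and do not give the error of a list median.

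**Figure D4:**
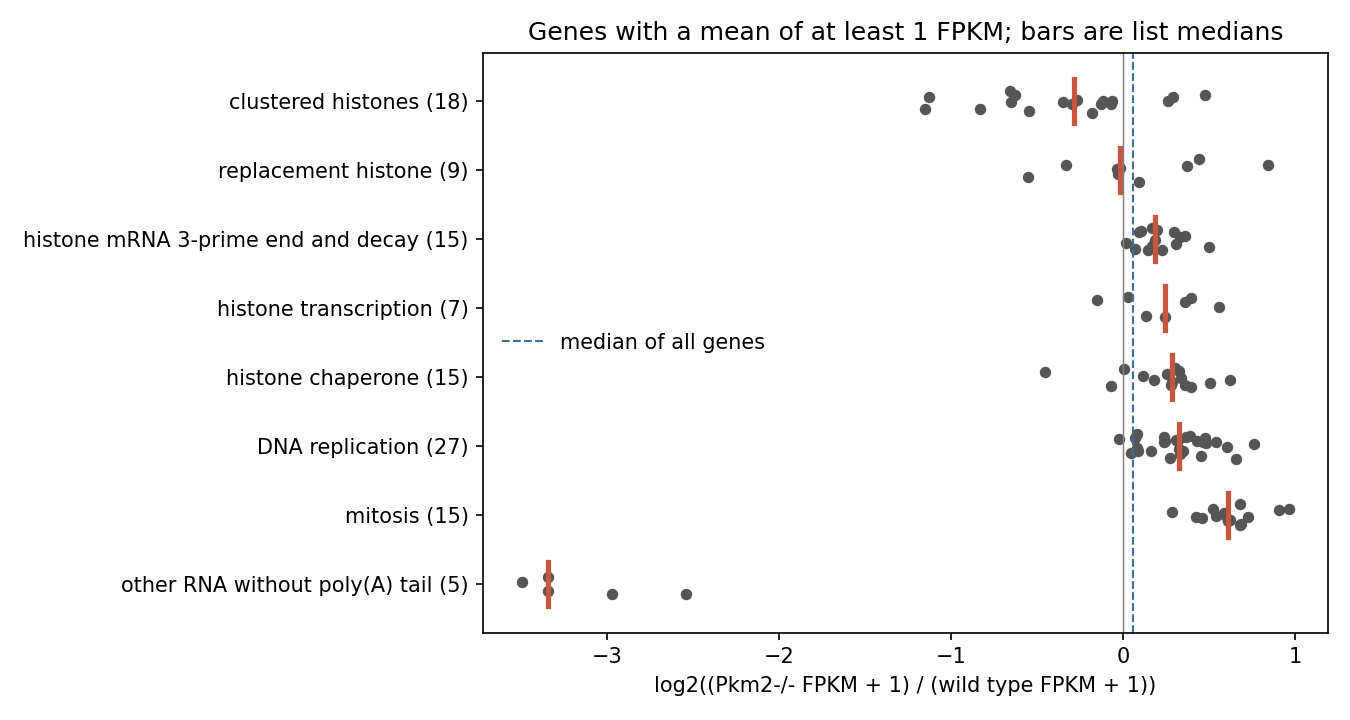
log2 ratio of Pkm2-/- over wild type for genes that averaged at least 1 FPKM, 1 point per gene, with the number of genes in brackets, the list median as a bar and the median of all genes as a dashed line. The clustered histones lie mostly left of 0, replication and mitosis genes right of it, and the structural RNAs near -3, with Rn7s1 and Rn7s2 drawn and counted separately.

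Markers of other cell types also differed between the libraries. All 5 erythrocyte markers were lower in the knockout library, summing to 24.5 FPKM in wild type and 1.91 FPKM in knockout. Fibroblast and smooth muscle markers summed to 4.42 and 1.60 FPKM, mostly Dcn (2.65 and 0.870 FPKM) and Col3a1 (1.20 and 0.239 FPKM). Of the 6 that both libraries listed, 5 were lower and Acta2 was higher (0.0281 and 0.232 FPKM). Endothelial markers summed to 1.42 and 0.825 FPKM, mostly Vwf (1.03 and 0.438 FPKM), while Pecam1 was close (0.365 and 0.353 FPKM). All 10 T cell markers were higher, summing to 21.3 and 90.3 FPKM, and B and plasma cell markers summed to 10.004 and 34.9 FPKM. Macrophage and dendritic cell markers summed to 35.0 and 39.0 FPKM, mostly Cd14 (26.7 and 24.1 FPKM). Of these 9 markers 4 were at least 2-fold higher in plain ratio, among them Fcer1g (0.804 and 4.22 FPKM) and Itgax (0.355 and 1.71 FPKM), and the median ratio was 1.67. Of the neutrophil markers only Ly6g was listed (25.4 and 13.1 FPKM), and S100a8, S100a9, Mpo and Elane were in neither library. Markers of the labelled epithelium summed to 4641 and 5525 FPKM. The part that other cells have in the histone values was not tested, and in bulk RNA fewer cells of a type cannot be told apart from less RNA per cell.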

How the data were processed

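The values are FPKM as the authors deposited them, 1 value per gene with symbol, Ensembl ID and locus. The unit was inferred from the Cufflinks entry of the notes and from the values, since no header names it. The submitters' processing notes list TopHat2 2.1.1 with Bowtie2 2.2.9, Cuffdiff 1.3.0, Cuffdiff 2.2.1 and Cufflinks 2.2.1, and name the build mm8. The loci themselves matched GRCm38 (99.96% of matched IDs overlapped the GENCODE M21 gene). Libraries were prepared from Trizol RNA with an mRNA-seq kit, per the labels' protocols. Strand use and the handling of reads with several matches: not given in the sources used here.

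Rows sharing a symbol were summed and an unlisted gene was taken as 0, which need not mean that it was not expressed. Of the 66 histone genes, 64 matched GENCODE M21 by ID and 2 by symbol. Log2 ratios are of knockout over wild type after adding 1 to each FPKM, which understates the difference of low genes; folds are plain ratios. With 1 library per genotype no test was run. The worth of 1 fragment was read from the lowest values of genes longer than 1.5 kb (0.0535 FPKM times kb for wild type and 0.0476 for knockout). Intervals of single genes are Clopper-Pearson intervals on the implied fragments, and those of sums add the Poisson variances of the members on the log scale; both are approximate and were tested on simulated data.

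The members and the 15 gene lists were chosen with earlier results of these data known. Lists were replacement histone, histone 3′ end and decay, histone transcription, histone chaperone, DNA replication, mitosis, other RNA without poly(A) tail, and markers of 8 cell types. Named genes were, per class, the 6 with the highest mean, the highest and lowest log2 ratio at a mean of at least 1 FPKM, every H1 gene and the 2 highest listed in 1 library alone, and per list the 2 most abundant and the highest and lowest ratio. Rn7sk, Rmrp, Slbp and Pkm were always named. Marker lists are given as sums, with some of their genes named after the values were seen. Alternatives were other pseudocounts, filters, scalings, thresholds and members left out. Python 3.11.15, pandas 2.3.3, NumPy 2.4.6, SciPy 1.17.1 and Matplotlib 3.10.9 were used.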

Additional observations from a re-analysis of the deposited data

How the results depend on the processing

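Of 143 recomputed values, 124 kept their direction and stayed within their counting interval or within 1.5 times a count, 17 moved further and 2 changed sign. This tally does not measure robustness. No histone gene had several rows, so taking the highest row of a symbol could not change a histone value. Keeping only genes listed in both libraries left every median and count as it was. For a median the interval was the median of single-gene bounds, for the clustered histones -0.70 to 0.21. The ratio of all histone sums, 0.597, was 0.563 with equal library medians, 0.630 without Hist1h2bc, 0.705 without the 2 highest members and 0.793 for members under a mean of 1 FPKM; the last 2 alternatives were chosen after seeing the data. Without the highest member the ratio was 0.8003 for H1, 0.764 for H2A and 0.744 for H2B, and among members under a mean of 1 FPKM it was 0.8003, 0.870 and 0.903. The count of at least 2-fold lower histone genes, 2, was 0 with a pseudocount of 5 FPKM and 6 at a threshold of 1.5-fold, and their median log2 ratio was -0.83 at a mean of at least 5 FPKM. With a pseudocount of 5 FPKM the medians were 0.47 for mitosis and -2.17 for structural RNAs. The structural RNA median enters Rn7s1 and Rn7s2 separately, although their values are identical. The replacement histone median, -0.02, was -0.10 with equal medians, -0.081 with equal upper quartiles, 0.033 with equal sums outside the mitochondrial chromosome and 0.088 as a mean. The scalings moved the log2 of plain ratios by -0.08, -0.07 and 0.05. No paired analysis was possible because each genotype has 1 library. Depth limits the 42 genes with fewer than 10 fragments in both libraries.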
